A study of Mus musculus with 9 samples.

Results

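This account covers 9 mouse genes that write, remove or read DNA methylation outside its maintenance: the de novo methyltransferases Dnmt3a and Dnmt3b, the dioxygenases Tet1, Tet2 and Tet3, the glycosylase Tdg, and the methyl-CpG binding proteins Mbd1, Mbd2 and Zbtb38. They were taken by symbol from both gene comparisons of the series, called here the authors' deposited Mutant table (Mutant versus Control, 22631 genes) and the authors' deposited PT/PUT table (27775 genes), and all 9 were found in each. The cells were satellite cells, which are muscle stem cells, from hindlimb muscle of 9-week-old mice. The labels give 3 groups of 3 libraries. Control mice received oil. Mutant mice received tamoxifen and were deficient in Uhrf1 in satellite cells, by Cre recombination after injection of 150 µl of a 20 mg/ml solution on each of 5 days. Cre Control mice also received tamoxifen. Control and Mutant cells were activated by culture for 3 days, while no culture protocol of Cre Control cells is given in the sources used here. The alleles, the promoter that drives Cre and whether libraries of a group came from separate mice are likewise not stated in those sources, so p-values may measure technical spread. Oil and tamoxifen separate Control from Mutant as the Uhrf1 deficiency does, and their effects cannot be told apart.

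DNA methylation is copied to new strands at replication by DNMT1, which UHRF1 brings to hemimethylated CpG sites. DNMT3A and DNMT3B instead place methyl groups on CpG sites that carried none. TET enzymes oxidise methylcytosine stepwise, and the glycosylase TDG cuts out the last oxidised forms, so that base excision repair can restore plain cytosine. MBD1 and MBD2 bind methylated CpG through a shared domain, MBD2 as part of the NuRD repressor complex, and ZBTB38 binds it through zinc fingers. In muscle cells DNMT3A is known for supporting satellite cell proliferation and ZBTB38 for holding back myogenin.

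The promoters of the genes that passed the test in Mutant cells are shown because the proteins described here act at CpG sites or bind them. Methylation of these promoters was not examined here. RefSeq windows (GRCm38.p6) from 250 bases before to 50 after a start were matched for 7 of the 9 genes. For genes with several listed starts the window with the most CpG sites is printed, 5′ to 3′ on the gene's strand, with CpG sites in capitals.
Dnmt3a, chr12:3806910-3807209, plus strand: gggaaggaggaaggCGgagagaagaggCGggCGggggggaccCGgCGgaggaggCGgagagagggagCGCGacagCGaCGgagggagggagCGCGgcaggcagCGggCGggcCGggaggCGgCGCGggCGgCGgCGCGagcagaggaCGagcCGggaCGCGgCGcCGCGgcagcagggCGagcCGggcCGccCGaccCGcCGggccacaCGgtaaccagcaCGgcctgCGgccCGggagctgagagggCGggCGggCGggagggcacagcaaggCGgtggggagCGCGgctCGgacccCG
Tet3, chr6:83441629-83441928, minus strand: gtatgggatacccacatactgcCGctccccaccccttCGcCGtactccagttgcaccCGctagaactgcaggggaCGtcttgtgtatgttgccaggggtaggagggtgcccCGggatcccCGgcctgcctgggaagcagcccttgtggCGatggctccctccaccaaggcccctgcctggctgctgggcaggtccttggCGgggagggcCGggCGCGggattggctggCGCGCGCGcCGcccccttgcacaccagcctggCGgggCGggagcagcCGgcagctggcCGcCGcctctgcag
Tdg, chr10:82629588-82629887, plus strand: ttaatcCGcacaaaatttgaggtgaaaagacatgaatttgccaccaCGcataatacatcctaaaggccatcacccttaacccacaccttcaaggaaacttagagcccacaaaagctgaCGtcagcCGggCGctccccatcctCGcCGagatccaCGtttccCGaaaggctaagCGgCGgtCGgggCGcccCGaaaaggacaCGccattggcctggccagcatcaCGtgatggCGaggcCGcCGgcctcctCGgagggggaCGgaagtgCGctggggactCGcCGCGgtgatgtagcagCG
Zbtb38, chr9:96719801-96720100, minus strand: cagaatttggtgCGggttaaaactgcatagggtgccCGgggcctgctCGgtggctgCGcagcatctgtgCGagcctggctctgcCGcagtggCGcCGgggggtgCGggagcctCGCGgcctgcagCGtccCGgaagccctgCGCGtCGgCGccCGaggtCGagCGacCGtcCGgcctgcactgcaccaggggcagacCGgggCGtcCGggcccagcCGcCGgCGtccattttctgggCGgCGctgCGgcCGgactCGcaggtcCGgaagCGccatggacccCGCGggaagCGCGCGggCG
The Dnmt3a window held 47 CpG sites, that of Zbtb38 41, that of Tdg 26 and that of Tet3 22, against a median of 7 over 32851 windows. All 4 lay above that median, with Dnmt3a and Zbtb38 each given by the window chosen for the most sites. The windows of Tet2 (57 sites), Dnmt3b (30) and Tet1 (17) also lay above the median. Starts differ within a gene: 1 of the 3 Zbtb38 windows held 8 sites, and 1 of the 3 Dnmt3a windows 18. The letters CCAAT, searched on both strands, occurred in the windows of Tet3 and Tdg alone among these 7 genes, each time as ATTGG, 31 and 45 bases before the start. Of all windows, 37.4% held them. The GC box GGGCGG, searched on both strands, was in at least 1 window of each of these genes but Tdg, with 7 matches (overlaps counted) in the Dnmt3a window printed and 35.7% of all windows holding it. The muscle E-box CAGCTG was found for Tet3 alone of the 7, in 16.3% of all windows. None of the 4 E2F sequences searched on both strands (TTTCCCGC, TTTGGCGC, TTTCGCGC and TTTGCCGC) was in any window of the 7 genes, and 2.26% of all windows held one.

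Values of genes in single libraries were not analysed here, and the depth behind each gene value is unknown. Uhrf1, the targeted gene, averaged 118 TPM (transcripts scaled to a common total) in Control and 20.4 TPM in Mutant in the authors' deposited Mutant table. These means check the direction of that table but not the label of any single library. The cells had the markers of their type, with Myod1 at 1018 and 914 TPM and Pax7 at 23.1 and 29.6 TPM in the authors' deposited Mutant table, where 4 of 7 satellite cell and myoblast markers fell and 2 rose. Of 8 macrophage and leukocyte markers 5 were listed, and 2 of them (Laptm5 and Cd68) rose in the authors' deposited Mutant table. The summed level of these 5 was 32.3 TPM in Control and 111 TPM in Mutant, most of it Laptm5 (25.1 and 84.8 TPM). The pan-leukocyte marker Ptprc stood at 0.381 and 0.303 TPM in the authors' deposited Mutant table. Of 5 endothelial markers Pecam1 (3.91 to 2.25 TPM, estimate −0.87) and Cdh5 (2.21 to 0.896 TPM, −1.34) fell and Tek (0.912 to 2.63 TPM, 1.31) rose in the authors' deposited Mutant table, with summed levels of 14.0 and 11.9 TPM. The pericyte marker Rgs5 rose from 0.359 to 2.93 TPM (3.03, SE 0.37) as 1 of 4 pericyte and smooth muscle markers, which summed to 444 and 452 TPM, most of it Acta2. Of 6 fibroblast markers 0 passed, with sums of 54.7 and 55.9 TPM in the authors' deposited Mutant table. Among repeat counts, available per library, the retroviral sequence IAPEz-int took 0.501% and 0.675% in Control 1 and Control 2, 13.1% in the library labelled Control 3, and 9.29% to 16.3% in the Mutant libraries. Control 3 thus lay among the Mutant libraries in this measure. The 95% Wilson interval of Control 3, which covers counting error only, was 13.1% to 13.2%. Whether that library entered the Control means below, and whether these markers or that library bear on the 9 genes, was not tested.

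The first comparison asks how these genes differ between Uhrf1-deficient and Control cells. Tet3, Tdg and Dnmt3a were lower in Mutant cells and Zbtb38 was higher, while Dnmt3b, Tet1, Tet2, Mbd1 and Mbd2 did not pass the test. Tet3 fell to 0.613 of its Control level, Tdg to 0.702 and Dnmt3a to 0.825, and Zbtb38 rose 1.73-fold, by the test estimates. In bulk RNA, fewer cells that express a gene and less of its RNA per cell cannot be told apart. Such an estimate is the log2 difference behind the authors' test, rebuilt as their statistic times its standard error (SE). A gene passed at an adjusted p below 0.05 in the authors' deposited Mutant table. The 3 lower and 1 higher genes stand beside 8.11% of all 22631 genes called lower and 9.02% called higher. Among the 8687 genes at 10 TPM or more, 35.3% passed, 19.7% as lower and 15.6% as higher. The median estimate was −0.25 over the 9 genes and 0.01 over all genes.

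**Figure D1:**
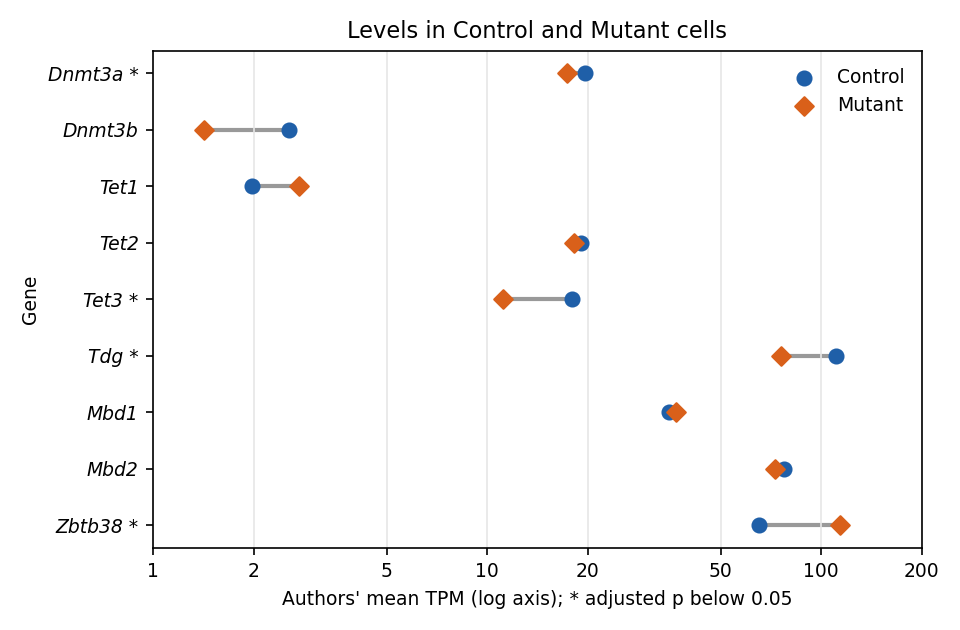
Mean level of each gene in Control (circles) and Mutant (diamonds) cells, in TPM on a log axis, with grey lines joining the 2 means of a gene; no error is drawn because the table holds means only. Tet3 and Tdg shift left and Zbtb38 shifts right, from 65.1 to 114 TPM, while the 2 symbols of Tet2, Mbd1 and Mbd2 nearly coincide. Dnmt3b also shifts left (2.54 to 1.42 TPM) and Tet1 right (1.98 to 2.74 TPM), but neither passed the test.

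Of the de novo enzymes, Dnmt3a made up most of the pair. Dnmt3a (ENSMUSG00000020661, chromosome 12, 3806007 to 3914443, plus strand, GRCm38) averaged 19.6 TPM in Control and 17.3 TPM in Mutant in the authors' deposited Mutant table. Its test estimate was −0.28 (SE 0.10, 95% interval −0.48 to −0.07, adjusted p = 0.0476 by the authors' deposited Mutant table). The call was close to the threshold and was lost at 0.01. Dnmt3b (ENSMUSG00000027478, chromosome 2, 153649450 to 153687730, plus strand) was far lower, at 2.54 TPM in Control and 1.42 TPM in Mutant in the authors' deposited Mutant table. Its estimate of −0.51 (SE 0.30, adjusted p = 0.316 by the authors' deposited Mutant table) was larger than that of Dnmt3a, but its interval of −1.10 to 0.08 included no change. Dnmt3a thus accounted for 88.5% of the summed TPM of both genes in Control and 92.4% in Mutant. Transcripts of their partners in germ cells were at most 0.285 TPM in either group, for Dnmt3l (the inactive cofactor) and Dnmt3c (the enzyme of male germ cells), in the authors' deposited Mutant table. Dnmt3c arose as a copy of Dnmt3b, so reads of the 2 may have been shared between them; it was at −2.64 (SE 0.96, adjusted p = 0.0143) with a mean of 5.96 normalised counts in the authors' deposited PT/PUT table. An antisense gene, Dnmt3aos, overlaps exons of Dnmt3a. The library kit keeps strand, but whether counting used it is not stated in the labels. Dnmt3aos had a mean of 3.12 normalised counts in the authors' deposited PT/PUT table, against 494 for Dnmt3a.

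Of the 3 TET enzymes, Tet3 passed the test and Tet1 and Tet2 did not. Tet3 (ENSMUSG00000034832, chromosome 6, 83362373 to 83459084, minus strand) averaged 18.0 TPM in Control and 11.1 TPM in Mutant in the authors' deposited Mutant table, with an estimate of −0.71 (SE 0.08, interval −0.86 to −0.55, adjusted p = 2.18e-16 by the authors' deposited Mutant table). It ranked 135 by p among all genes of the authors' deposited Mutant table. Tet2 (ENSMUSG00000040943, chromosome 3, 133463679 to 133545139, minus strand), at a similar level, averaged 19.1 and 18.2 TPM in the authors' deposited Mutant table. Its estimate was −0.03 (SE 0.09, adjusted p = 0.926 by the authors' deposited Mutant table), and the interval of −0.21 to 0.16 did not overlap that of Tet3. Tet1 (ENSMUSG00000047146, chromosome 10, 62804570 to 62908996, minus strand), best known from embryonic stem cells, was scarce, at 1.98 TPM in Control and 2.74 TPM in Mutant in the authors' deposited Mutant table. Its direction was not settled: the ratio of mean TPM was 1.39, while the test estimate was −0.25 (SE 0.25, interval −0.74 to 0.25, adjusted p = 0.697 by the authors' deposited Mutant table). The summed level of the 3 enzymes was 39.0 TPM in Control and 32.1 TPM in Mutant. Tet3 made up 46.0% of that sum in Control and 34.7% in Mutant, and Tet2 48.9% and 56.8%.

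Tdg, which acts after the TET enzymes, was the most abundant of the 9 genes in Control. Tdg (ENSMUSG00000034674, chromosome 10, 82629828 to 82650799, plus strand) averaged 111 TPM in Control and 75.9 TPM in Mutant in the authors' deposited Mutant table. Its estimate was −0.51 (SE 0.06, interval −0.63 to −0.39, adjusted p = 5.45e-14 by the authors' deposited Mutant table), and it ranked 187 by p. Glt8d2, on the opposite strand, overlaps an exon of Tdg but was listed at only 3.28 and 2.93 TPM in the authors' deposited Mutant table. Tet3 and Tdg had the smallest p-values of the 9 genes in this comparison.

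Of the 3 readers, Zbtb38 passed the test and Mbd1 and Mbd2 did not. Zbtb38 (ENSMUSG00000040433, chromosome 9, 96682770 to 96752831, minus strand) averaged 65.1 TPM in Control and 114 TPM in Mutant in the authors' deposited Mutant table, and passed from below Mbd2 and Tdg to the highest level of the 9 genes. Its estimate was 0.79 (SE 0.26, interval 0.28 to 1.31, adjusted p = 0.0178 by the authors' deposited Mutant table). That call was lost at a threshold of 0.01. The SE of Zbtb38 was wide for its level: 97.3% of the 1640 genes within 1.5 times its mean TPM had a smaller one, and their median SE was 0.07. Uhrf1 shared this feature, with an SE of 0.60 in the authors' deposited Mutant table that was larger than that of 99.2% of genes of like level, whereas the other 8 genes lay near or below the median SE of their level. Mbd2 (ENSMUSG00000024513, chromosome 18, 70568189 to 70626131, plus strand) averaged 77.5 and 72.8 TPM in the authors' deposited Mutant table, with an estimate of −0.02 (SE 0.08, interval −0.17 to 0.13, adjusted p = 0.926). Mbd1 (ENSMUSG00000024561, chromosome 18, 74267605 to 74282732, plus strand) averaged 35.0 and 36.7 TPM in the authors' deposited Mutant table, with an estimate of 0.07 (SE 0.09, interval −0.10 to 0.24, adjusted p = 0.782). The intervals of Mbd1 and Mbd2 reached no farther than 0.24 (log2) from 0.

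**Figure D2:**
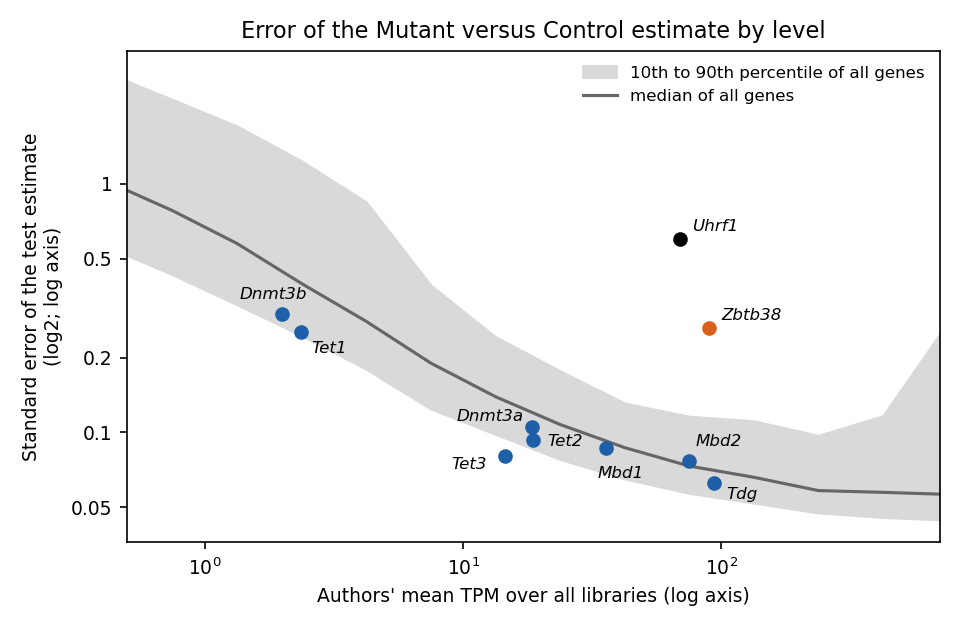
Standard error of the Mutant versus Control estimate (log2, log axis) against mean TPM (log axis) for the 9 genes and Uhrf1, over the median (line) and the 10th to 90th percentiles (band) of all genes by level. Zbtb38 (0.26) and Uhrf1 (0.60) lie above the band, and the other 8 genes lie close to or below the line.

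The second comparison sets 2 arms abbreviated PT and PUT against each other. The labels do not tie these to groups, so its fold changes are given with the sign of the authors' deposited PT/PUT table, in which Uhrf1 stood at −4.0 (SE 0.27, adjusted p = 1.81e-48); "lower" means that same sign. In the authors' deposited PT/PUT table, Dnmt3a, Dnmt3b, Tet3, Tdg and Mbd1 were lower, Zbtb38, Mbd2 and Tet2 were higher, and Tet1 did not pass. These 5 lower and 3 higher genes stand beside 22.1% and 25.1% of all 27775 genes called lower and higher, so that 47.2% of that table passed. Among the 12170 genes averaging 100 normalised counts or more, 71% passed, 42.1% as lower and 28.8% as higher. The median over all genes was 0.14 and that over genes averaging 10 normalised counts or more was −0.01, so the shift comes with genes of low counts. The median over the 9 genes was −0.38. Some markers of cell types also passed in this comparison. Of 7 satellite cell and myoblast markers 6 were lower and 1, Myf5, was higher in the authors' deposited PT/PUT table. Of 4 listed macrophage and leukocyte markers Laptm5 (2.00, SE 0.12) and Fcer1g (4.65, SE 0.64) were higher and Csf1r (−0.46, SE 0.16) was lower in the authors' deposited PT/PUT table. The pericyte and smooth muscle markers Rgs5 (2.18, SE 0.35), Myh11 (1.82, SE 0.22) and Cspg4 (0.86, SE 0.10) were higher, 3 of 4. So were 2 of 5 fibroblast markers, Pdgfra (1.38, SE 0.31) and Dcn (4.04, SE 1.25), and 1 of 5 endothelial ones, Cdh5 (1.96, SE 0.62). Dcn and Cdh5 averaged only 5.63 and 12.8 normalised counts in the authors' deposited PT/PUT table. Csf1r and Myh11 averaged 177 and 93.5 normalised counts there, but only 0.293 and 0.349 TPM in the authors' deposited Mutant table. The cause of that difference in level was not tested. The part of these markers in the values of the 9 genes was not tested.

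**Figure D3:**
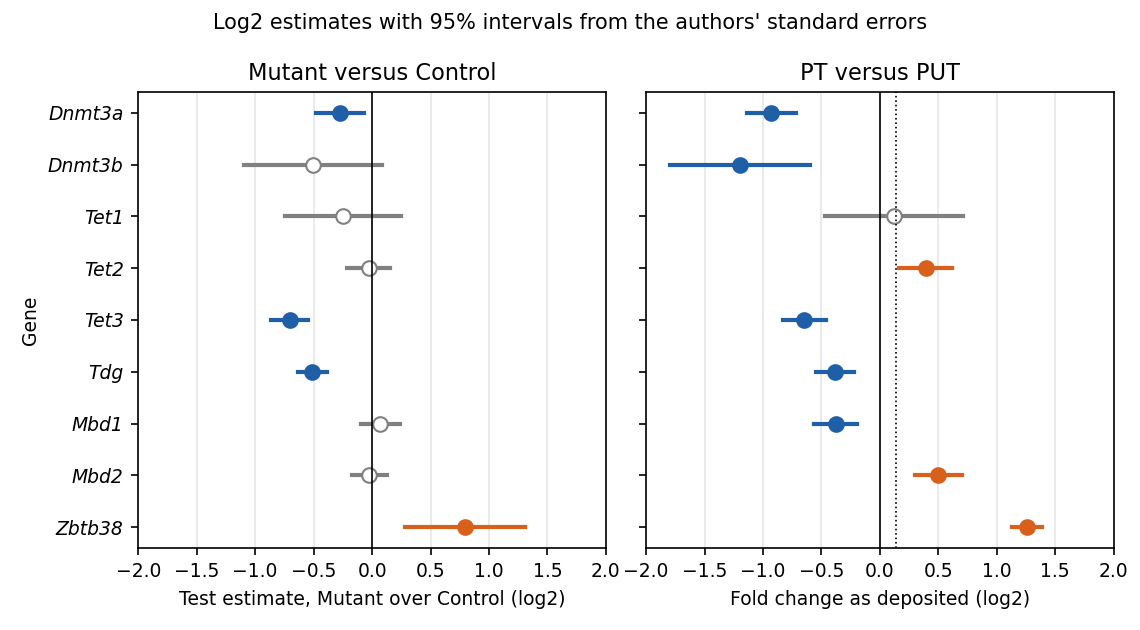
Log2 estimates of the 9 genes in both comparisons, with 95% intervals from the authors' standard errors; filled symbols passed an adjusted p below 0.05, blue lower and orange higher, and open grey symbols did not pass. The dotted line marks the median of all genes in the PT versus PUT comparison (0.14), and Zbtb38 lies farthest right in both panels, at 0.79 and 1.26.

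The de novo enzymes showed larger values here than between Mutant and Control. Dnmt3a was at −0.93 (SE 0.11, interval −1.14 to −0.72, adjusted p = 5.13e-17) and Dnmt3b at −1.20 (SE 0.30, interval −1.79 to −0.60, adjusted p = 0.000299) in the authors' deposited PT/PUT table. Whether the 2 comparisons differ was not tested, because the labels do not say which libraries they share. Tet3 was at −0.65 (SE 0.09, adjusted p = 4.47e-11 in the authors' deposited PT/PUT table), beside −0.71 between Mutant and Control. Tet2 was at 0.39 (SE 0.12, adjusted p = 0.00211 in the authors' deposited PT/PUT table), where the estimate between Mutant and Control was −0.03. Tet1 was at 0.12 (SE 0.30, interval −0.47 to 0.71, adjusted p = 0.780 in the authors' deposited PT/PUT table). Tdg was at −0.38 (SE 0.08, adjusted p = 2.11e-05 in the authors' deposited PT/PUT table), beside −0.51.

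Of Zbtb38, Mbd2 and Mbd1, Zbtb38 had the largest value, at 1.26 (SE 0.06, interval 1.13 to 1.38, adjusted p = 2.14e-81 in the authors' deposited PT/PUT table), a 2.39-fold difference. Of all genes there, 80.4% had a lower value. Among the other readers described below, Zbtb33 was at 1.51 and Mbd3 at −1.25. The SE of Zbtb38 here was not wide, being below the median of 0.07 for genes of like level. Mbd2 was at 0.50 (SE 0.10, interval 0.30 to 0.70, adjusted p = 5.90e-06) and Mbd1 at −0.38 (SE 0.09, interval −0.56 to −0.19, adjusted p = 0.000223) in the authors' deposited PT/PUT table. The 2 MBD proteins therefore had opposite signs in the authors' deposited PT/PUT table, while neither passed between Mutant and Control. Centred on the median of all genes, Mbd2 stayed above 0 at 0.36 and Tet2 at 0.25.

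The order of levels of the 9 genes was similar by either table. Divided by the length of the merged exons of each gene in GENCODE M21, mean normalised counts per kilobase in the authors' deposited PT/PUT table were 224 for Tdg, 176 for Mbd2, 174 for Zbtb38, 96.4 for Mbd1, 47.7 for Tet3, 30.7 for Tet2, 29.7 for Dnmt3a, 9.79 for Dnmt3b and 2.98 for Tet1. By mean TPM over Control and Mutant together in the authors' deposited Mutant table the order was Tdg, Zbtb38, Mbd2, Mbd1, Tet2, Dnmt3a, Tet3, Tet1 and Dnmt3b. Both orders put Tdg first, the 3 readers next and Tet1 and Dnmt3b last. Whether neighbours such as Tet2 (18.6 TPM) and Dnmt3a (18.4 TPM) differ in level could not be tested without values per library. Merged exon length counts all annotated isoforms, so it understates the level of genes that express few of them.

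Other genes of DNA methylation were taken from 7 lists, of 68 genes in the authors' deposited Mutant table without Uhrf1. Of these 28 fell, 3 rose and 37 did not pass, with a median estimate of −0.19, to be read beside the shares of all genes given above. PT/PUT values were listed for 66, of which 35 were lower, 14 higher and 17 did not pass, with a median of −0.32. In the maintenance list 6 of 8 genes fell and 0 rose by the authors' deposited Mutant table: besides Uhrf1, Cdca7, a partner of the remodeller HELLS, changed most (39.3 to 27.7 TPM, estimate −0.55, SE 0.11), followed by Pcna, the replication clamp (−0.45, SE 0.06). Between PT and PUT, 5 of these 8 were lower, with Cdca7 at −0.89 (SE 0.12) and Pcna at −0.43 (SE 0.08). Of 8 de novo partners 2 fell in the authors' deposited Mutant table, the H3K36 methyltransferases Nsd2 (148 to 120 TPM, estimate −0.37, SE 0.06) and Nsd1 (109 to 97.2 TPM, estimate −0.23, SE 0.05). Nsd2 was also lower in the authors' deposited PT/PUT table (−0.33, SE 0.07), and Nsd1 did not pass (−0.08, SE 0.06, adjusted p = 0.291).

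The genes that supply or modify TET enzymes split. Of 7, 3 fell and 2 rose in the authors' deposited Mutant table. Idh1, the cytosolic enzyme that makes the TET cosubstrate alpha-ketoglutarate, rose from 21.8 to 51.4 TPM (estimate 1.22, SE 0.13, adjusted p = 2.13e-19 by the authors' deposited Mutant table). The mitochondrial Idh2 fell from 187 to 129 TPM (−0.53, SE 0.06) and Idh3a from 225 to 153 TPM (−0.60, SE 0.06) in the authors' deposited Mutant table. By the authors' deposited PT/PUT table Idh1 was at 1.31 (SE 0.13), Idh2 at −1.13 (SE 0.07) and Idh3a at −0.82 (SE 0.07). In the list of base excision, the step that follows TDG, 6 of 14 genes fell and 0 rose by the authors' deposited Mutant table. Of all genes there 8.11% were called lower, and of those at 10 TPM or more 19.7%. Ung, the uracil glycosylase, fell from 17.3 to 10.2 TPM (−0.85, SE 0.15), Neil3 from 10.9 to 7.64 TPM (−0.50, SE 0.18) and Apex1, the endonuclease at abasic sites, from 222 to 167 TPM (−0.45, SE 0.06) in the authors' deposited Mutant table. Between PT and PUT, 10 of the 14 were lower, among them Ung (−0.93, SE 0.17), Neil3 (−1.01, SE 0.19) and Apex1 (−1.55, SE 0.08). In that comparison 22.1% of all genes were called lower, and 42.1% of those averaging 100 normalised counts or more.

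Of 8 other readers of methyl-CpG, 2 fell and 1 rose in the authors' deposited Mutant table. Uhrf1 is 1 of the fallen, and Mbd3, the NuRD subunit that has lost most affinity for methylated DNA in mammals, is the other (162 to 124 TPM, estimate −0.36, SE 0.07). Zbtb4, a relative of Zbtb38, rose from 5.05 to 10.1 TPM (0.74, SE 0.13, adjusted p = 1.14e-07 by the authors' deposited Mutant table). Kaiso (Zbtb33), the third zinc-finger reader of that family, was at 20.1 and 19.1 TPM and did not pass (−0.11, SE 0.09, adjusted p = 0.492 by the authors' deposited Mutant table), but was at 1.51 (SE 0.12) in the authors' deposited PT/PUT table; it was named after its values were seen. By the authors' deposited PT/PUT table Mbd3 was at −1.25 (SE 0.07) and Zbtb4 at 0.30 (SE 0.13). Of 16 partners of the MBD proteins 6 fell and 0 rose by the authors' deposited Mutant table, with Chd3, a NuRD remodeller, at −0.62 (SE 0.20), Suv39h1, an H3K9 methyltransferase, at −0.36 (SE 0.07), and Setdb1, another, which works with MBD1, at −0.29 (SE 0.08). The same 3 genes were at −0.91 (SE 0.10), 0.30 (SE 0.09) and −0.49 (SE 0.08) in the authors' deposited PT/PUT table, so Suv39h1 had opposite signs in the 2 tables. Of 10 genes of methyl donor supply 5 fell and 0 rose by the authors' deposited Mutant table. They included the folate enzymes Shmt1 (68.2 to 36.1 TPM, −0.82, SE 0.09) and Shmt2 (218 to 149 TPM, −0.55, SE 0.07) and Mat2a, which makes S-adenosylmethionine (321 to 234 TPM, −0.51, SE 0.05). Between PT and PUT, 7 of the 10 were lower, with Shmt1 at −0.71 (SE 0.11) and Shmt2 at −0.53 (SE 0.08), while Mat2a did not pass (−0.02, SE 0.07, adjusted p = 0.862). The counts of fallen genes in these lists stand beside 8.11% of all genes and 19.7% of those at 10 TPM or more. Between PT and PUT the shares called lower were 22.1% of all genes and 42.1% of those averaging 100 normalised counts or more.

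**Figure D4:**
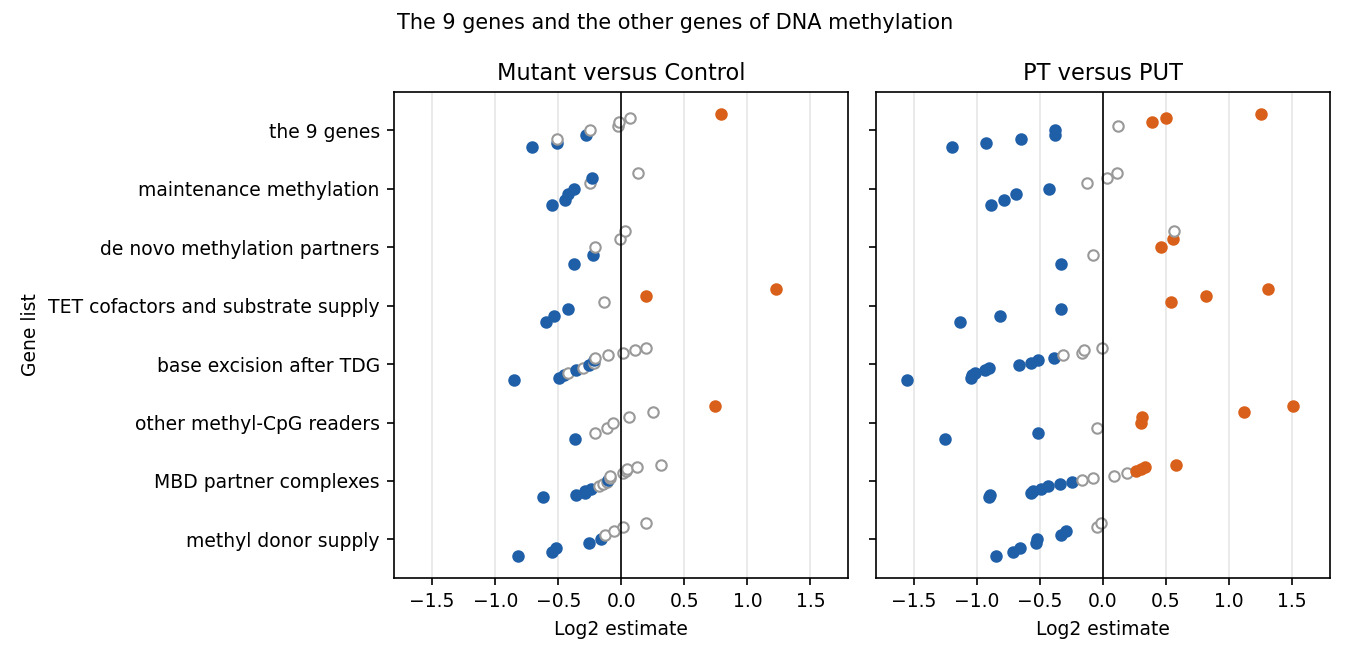
Log2 estimates of the 9 genes and of the 7 lists with a mean of at least 1 TPM, 1 symbol per gene (Uhrf1 left out; order within a list by value), in both comparisons; filled blue and orange symbols passed as lower and higher, open symbols did not pass. Symbols of base excision and methyl donor supply lie mainly left of 0 in both panels, and Idh1 is the rightmost of the TET list at 1.22 and 1.31.

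Genes reported elsewhere to respond to members in muscle cells or to act on them gave mixed values. Myog, which ZBTB38 is known to repress, averaged 589 and 291 TPM and did not pass (estimate −1.03, SE 0.54, adjusted p = 0.219 by the authors' deposited Mutant table). Mcm10, a replication factor that ZBTB38 is also known to repress, fell from 47.8 to 34.4 TPM (−0.56, SE 0.10) in the authors' deposited Mutant table and was at −0.87 (SE 0.10) in the authors' deposited PT/PUT table. Cdkn1c, which DNMT3A is known to silence in satellite cells, averaged 3.94 and 5.91 TPM and did not pass (0.81, SE 0.31, adjusted p = 0.0566 by the authors' deposited Mutant table). Pax7 rose (0.35, SE 0.08) and Myod1 fell (−0.17, SE 0.05) in the authors' deposited Mutant table, while both were lower in the authors' deposited PT/PUT table (−0.43, SE 0.10, and −0.15, SE 0.06). Of the 6 genes of that list 2 fell and 1 rose in the authors' deposited Mutant table, and 3 were lower and 1 higher in the authors' deposited PT/PUT table.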

How the data were processed

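RNA was measured in 9 libraries. Per the labels' protocols, Control and Mutant libraries came from RNA without ribosomal RNA and were directional, with paired reads. Per the submitters' processing notes, the tools were STAR 2.7.6a (HISAT2 2.2.1 for Cre Control), featureCounts 2.0.1, Trim Galore 0.6.6 and DESeq2, on GRCm38, with no order or role given. The authors deposited mean TPM of Control, Mutant and all libraries, and for each gene the statistic (a score), standard error, log2 fold change, p-value and adjusted p-value of their test. That log2 fold change is the ratio of mean TPM plus 1, so the test estimate, statistic times standard error, was used instead. The authors deposited the PT versus PUT comparison with a mean signal (normalised counts averaged over libraries), log2 fold change, standard error, score and p-value. The authors also deposited raw counts per repeat subfamily for 6 libraries (1794698 to 2245124 counts each), used for shares with Wilson intervals.

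Adjusted p-values are the authors', from models across all genes, with a threshold of 0.05. Intervals are estimates plus and minus 1.96 SE. The Benjamini-Hochberg recalculation was tested on simulated data. Scripts ran in Python 3.11.15 with pandas 2.3.3 and statsmodels 0.14.6. The genes and lists were chosen with earlier results of these data known. Named genes are the 9, Uhrf1, and up to 3 called genes with the largest absolute test estimate per list, averaging 1 TPM or more; markers, Zbtb33, Dnmt3l, Dnmt3c and the uncalled Myog and Cdkn1c are named beyond that rule. Alternatives were other thresholds, adjustment over other gene sets, other pseudocounts and centring. No comparison labelled as one with Cre Control was analysed here, nor was the table of repeat comparisons. Whether PT or PUT holds Cre Control libraries is not stated in the labels.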

Additional observations from a re-analysis of the deposited data

How the results depend on the processing

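No paired analysis was possible because the gene tables hold comparisons and group means without values per library. For the same reason no library could be left out, the library labelled Control 3 included. At a threshold of 0.01, the genes called higher in Mutant cells went from 1 to 0 (Zbtb38), and those called lower from 3 to 2, without Dnmt3a. At 0.1, and with Benjamini-Hochberg adjustment over all genes or over genes averaging 1 TPM or more (10 normalised counts for PT versus PUT), the counts of called genes were unchanged in both comparisons. The Mutant versus Control value of Tet1 changed sign from −0.25 to 0.33 with mean TPM plus 1, to 0.45 with a pseudocount of 0.1 and to 0.47 with none, and the cause was not tested. Centring on the median of all genes took Tet1 from 0.12 to −0.0193 in PT versus PUT, by construction. The other 8 genes kept their sign under each of these alternatives in both comparisons, but not always their size. In Mutant versus Control, Dnmt3a went from −0.28 to −0.17 with mean TPM plus 1. Dnmt3b went from −0.51 to −0.84 by mean TPM with no pseudocount. Depth could not be judged for genes.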
